A study of Homo sapiens with 28 samples.

Results

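The RNA levels and splicing of 53 genes that encode splicing regulators were examined in human leukemia cells in which MBNL1, itself a splicing factor, had been knocked down. The genes were taken from a fixed list of SR and TRA2 proteins, hnRNPs, RBM, LUC7L and CLK proteins, snRNP and splice site recognition proteins and other RNA-binding regulators. Expression rows were found by Ensembl gene identifier and splicing rows by symbol. Expression was measured for 52 of the 53 genes, out of 22391 genes in all, and splicing for 51 of them, in 541 of 100814 events. PCBP1 was not analysed here, and LUC7L2 had expression values only. The rule itself uses no measured value. RNA-seq of 28 libraries was used, from 2 cell lines with rearranged MLL, MOLM13 (MLL-AF9) and MV4;11 (MLL-AF4). In MOLM13 hairpin 64 against MBNL1 was set against the non-targeting hairpin shNT at day 4 (3 and 3 libraries) and at day 12 (3 and 3 libraries). Hairpin 65 (4 libraries) was set against a second shNT set (3 libraries) in the same line. In MV4;11 hairpin 64 (3 libraries) and hairpin 65 (3 libraries) were both set against the same 3 shNT libraries. For hairpin 65 in MOLM13 and for the MV4;11 libraries no day was found in the sources used here. Day 12 libraries are biological triplicates; for the others nothing says that they came from separate cultures, so that p-values there cover the spread among these libraries alone, which may be technical. Each line comes from 1 patient, and every cell carries a hairpin vector, the shNT cells included.

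Splicing regulators decide which exons of a transcript are kept. SR proteins bind exons through RNA recognition motifs and usually promote their inclusion, hnRNPs often act in the other direction, and the U1 and U2 snRNPs with their partners mark the ends of introns. Many of these genes control their own output by including a poison exon or retaining an intron, which sends the transcript to nonsense-mediated decay or keeps it in the nucleus. MBNL1 binds YGCY sequences, in which Y is C or T, and promotes or represses exons according to where it binds. The comparison asks whether loss of MBNL1 changes the expression or splicing of other members of this machinery.

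MBNL1 itself had 2.94, 2.96 and 3.80 RPKM (reads scaled to gene length and library size) with hairpin 64 at day 4, against 18.8, 19.97 and 28.6 with shNT (adjusted p = 0.0674, and 0.00328 with the replicate number as a block, limma). It stood at 16.7% of shNT at day 12 and 16.6% in MV4;11 with the same hairpin, at 53.3% with hairpin 65 in MV4;11 and at 67.3% with hairpin 65 in MOLM13, where the difference did not pass the test (adjusted p = 0.209, limma, Benjamini-Hochberg). Of 10 myeloid markers 9 reached 1 RPKM in at least 1 library (CEBPA did not). This level was reached by 0 of 3 erythroid, 1 of 4 B lymphoid (CD79A) and 1 of 3 T lymphoid (CD3D) markers. It was also reached by 1 of 3 epithelial (KRT18, in every library) and 2 of 3 fibroblast markers (PDGFRB and COL1A1). Summed RPKM was at least 1046 for the myeloid list in each library and at most 12.3 for any other list. The relative sequencing depth, estimated from the value of 1 read, ranged from 0.469 to 1.68 of the median library. Both day 4 libraries numbered 3 were the shallowest of their groups and stood apart from the other libraries of the group. In the second MOLM13 shNT set library a also stood apart. Its HNRNPA1 level was 297 RPKM, against 96.1 in library b and 99.5 in library c, and results that rest on these libraries are given with and without them.

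In shNT libraries the members covered a wide range of expression. HNRNPA2B1 had the highest mean, 652 ± 156 RPKM, followed by HNRNPK with 317 ± 40.9 and HNRNPA1 with 197 ± 95.9 RPKM (SD, n = 12 shNT libraries). The lowest were FMR1 with 3.58 ± 0.548, QKI with 4.73 ± 0.528 and CLK4 with 4.72 ± 1.48 RPKM. In all, 14 members lay over 100 RPKM and 4 under 10 RPKM. Levels differed between the lines. Of 52 members, 41 were lower in MV4;11 than in the mean of the MOLM13 shNT sets, by a median log2 difference of -0.32 over all 52. For 16 of 52 members the range of the 3 MOLM13 shNT group means was larger than the largest of the 5 knockdown fold changes on the log2 scale.

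MBNL1 knockdown changed the expression of few of these genes by a large amount. The study's rule called a gene at an unadjusted limma p of 0.01 or less with a change of at least 1.5-fold. It called 1 of 52 members with hairpin 64 at day 4 (TRA2A, lower), where 2.42% of all genes were called. At day 12 it called 0 of 52 members, where 5.52% of all genes were called. Hairpin 65 in MOLM13 gave 0 of 52, against a background of 3.24%. In MV4;11 the rule called 2 of 52 with hairpin 64 (PTBP1 higher and TARDBP lower), against 6.51%, and 0 of 52 with hairpin 65, against 3.63%. Leaving out 1 library moved some of these counts. At day 4 the rule called 2 members without shNT library 3 (3.66% of all genes). The hairpin 64 count in MV4;11 was 4 without shNT library 3 (19.1% of all genes), 1 without shNT library 2 or hairpin 64 library 1, and 0 without shNT library 1. The hairpin 65 count in MV4;11 was 1 without shNT library 3 (13.1% of all genes). Counts with no share beside them show only how member calls moved, and not how members compare with other genes. The median log2 fold change of the members was -0.13 at day 4, -0.04 at day 12, -0.08 with hairpin 65 in MOLM13, and in MV4;11 -0.11 with hairpin 64 and -0.05 with hairpin 65. The medians of all genes tested were 0.00, 0.04, 0.05, 0.01 and 0.06 in the same order. In bulk RNA a change in RNA per cell and a change in the mix of cells cannot be told apart.

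A second threshold, a Benjamini-Hochberg adjusted p under 0.05 in limma with no minimum change, was passed by 20 of 52 members at day 12, 7 higher and 13 lower. At this threshold 49.7% of all genes passed, 30.4% higher and 19.3% lower. In the same set 27 of 52 members had knockdown and shNT libraries that did not overlap, 8 higher and 19 lower, against 59.6% of all genes. At day 4 0 of 52 members passed, and 0% of all genes did, while 4 of 52 had an unadjusted p under 0.05 against 10.3% of all genes. Same-numbered day 4 libraries moved together, and with the replicate number as a block 10 of 52 members passed, all lower: TRA2A, HNRNPUL1, TARDBP, RBM10, HNRNPU, PTBP3, TRA2B, PCBP2, SRSF7 and SRSF1. The blocked background was 29.4% of all genes, 14.1% lower. Without both libraries numbered 3, 4 of 52 members passed against 23.3% of all genes. The day 12 count was 13 of 52 without shNT library 1 (41.1% of all genes) and 12 of 52 without shNT library 2 (41%).

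**Figure D1:**
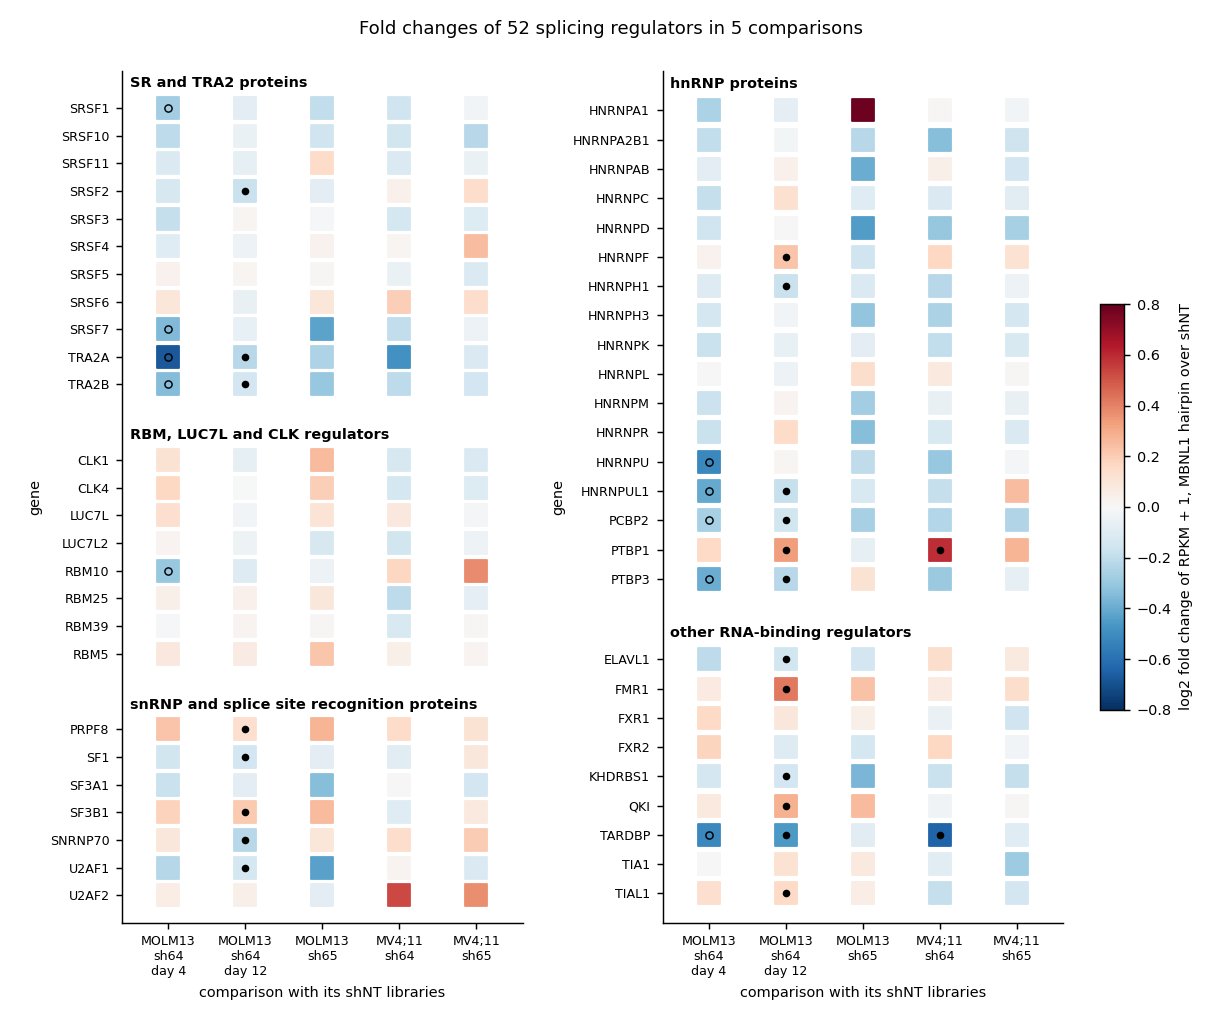
Log2 fold change of RPKM + 1 for the 52 measured members (rows, grouped by role) in the 5 knockdown comparisons (columns), as coloured squares. A filled dot marks an adjusted p under 0.05 in limma and an open circle one reached at day 4 only with the replicate block; 20 members carry a dot at day 12 and 10 a circle at day 4.

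With hairpin 65 in MOLM13 0 of 52 members passed the adjusted threshold, which 0.00985% of all genes passed, and 5 of 52 had an unadjusted p under 0.05 against 18.2%. Without shNT library a both rules called 4 of 52 members, against 8.87% of all genes by the study's rule and 7.53% at the adjusted threshold. In MV4;11 hairpin 64 gave 2 of 52 members at the adjusted threshold against 7.8% of all genes. Without shNT library 3 it gave 26 of 52 against 59.8%, and without any other single library it gave 0. No share over all genes is given beside the counts of 0, so they show only how member calls moved. Knockdown and shNT libraries did not overlap for 11 of 52 members at day 4 against 18% of all genes, for 8 with hairpin 65 in MOLM13 against 17.4%, and in MV4;11 for 16 with hairpin 64 against 38.1% and for 10 with hairpin 65 against 26.1%. Hairpin 65 in MV4;11 gave 0 of 52 against 1.9%, with 1 of 52 at an unadjusted p under 0.05 against 21.6%. Without shNT library 3 it gave 10 of 52 against 39%. TARDBP and PTBP1 were the 2 members that passed with hairpin 64 in MV4;11.

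**Figure D2:**
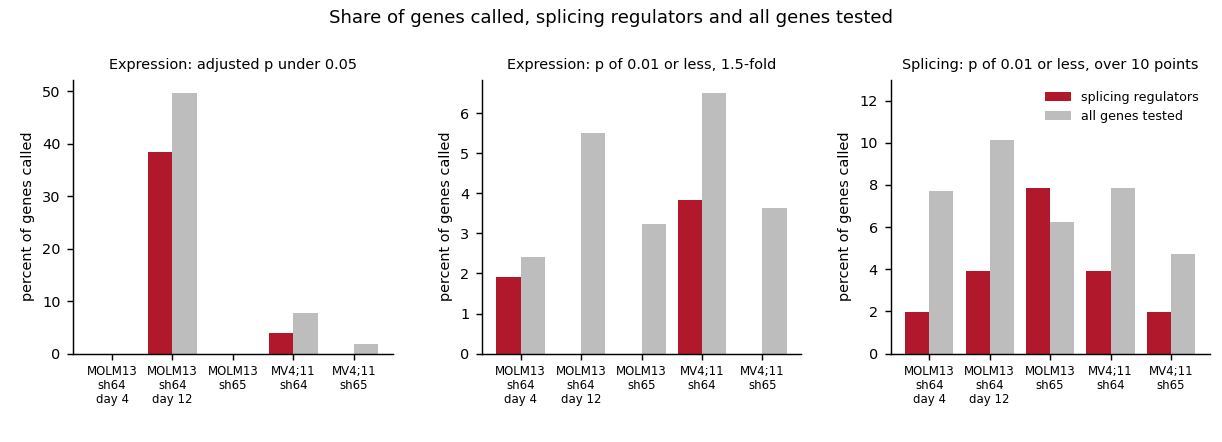
Percentage of members (52 genes for expression, 51 for splicing) and of all genes called in each of the 5 knockdown comparisons, by adjusted p, by the study's rule for expression and by the study's rule for splicing. At day 12 the adjusted threshold was passed by 20 of 52 members and 49.7% of all genes, and the study's rule by 0 of 52 members and 5.52%.

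TARDBP encodes TDP-43, which binds UG-rich RNA and represses cryptic exons. It lies at chr1:11072401-11090585 (GRCh37, plus strand). Its RPKM was 23.2, 23.7 and 22.5 with hairpin 64 at day 4, against 37.5, 36.9 and 27.0 with shNT. At day 12 it was 27.7, 27.6 and 26.8 with hairpin 64, against 38.9, 37.8 and 37.3 with shNT. MV4;11 cells gave 22.9, 21.8 and 22.2 with hairpin 64 and 31.1, 33.5 and 34.5 with hairpin 65, against 39.2, 39.1 and 28.9 with shNT. Hairpin 64 libraries lay below every control of their set in each of these 3 comparisons, and the hairpin 65 libraries lay inside the range of the controls. TARDBP fell at day 12 by 0.46 on the log2 scale (SE 0.04, adjusted p = 8.0e-05, limma). In MV4;11 with hairpin 64 it fell by 0.64 (SE 0.14, adjusted p = 0.0343). At day 4 the log2 fold change was -0.51 (SE 0.16, adjusted p = 0.379), and with the replicate block the adjusted p was 0.0242. Without shNT library 3 at day 4 it was -0.66, which the study's rule called, and without shNT library 1 or 2 of MV4;11 the fold change there was -0.57, below 1.5-fold. The hairpin 65 libraries of MOLM13 read 25.6, 27.3, 39.3 and 39.8 RPKM, against 23.5, 40.3 and 43.5 in the second shNT set, and overlapped throughout.

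**Figure D3:**
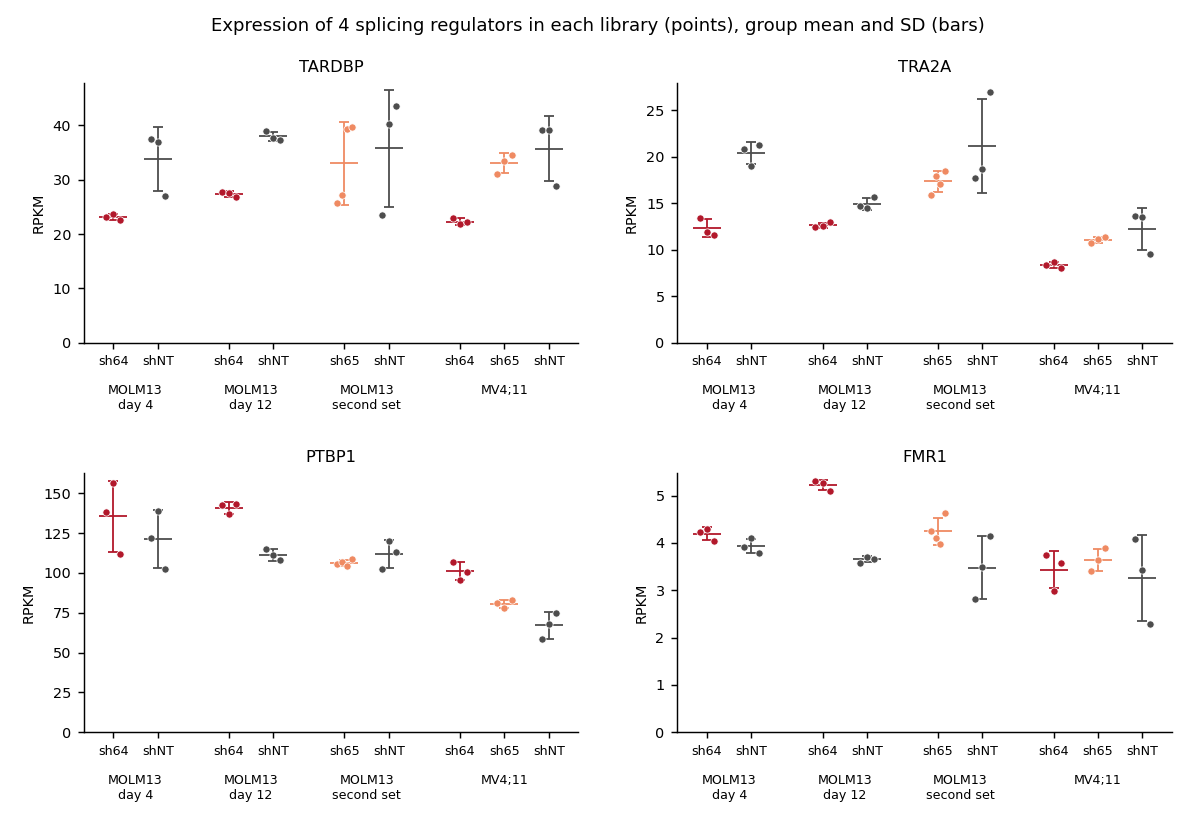
RPKM of TARDBP, TRA2A, PTBP1 and FMR1 in each of the 28 libraries (points) with the mean and SD of each of the 9 groups, each knockdown group left of its shNT group. TARDBP lies between 21.8 and 27.7 RPKM in all 9 hairpin 64 libraries, and between 27.0 and 39.2 in the 9 shNT libraries of the same sets.

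Of the 11 SR and TRA2 genes none rose in any comparison at the adjusted threshold, and SRSF2, TRA2A and TRA2B fell at day 12, where 19.3% of all genes fell. With the day 4 block 4 of 11 fell, against 14.1% of all genes. TRA2A, which binds GAA-rich exonic enhancers as its paralog TRA2B does, had 13.4, 12.0 and 11.6 RPKM with hairpin 64 at day 4, against 20.8, 19.0 and 21.3 with shNT. Day 12 gave 12.5, 12.5 and 12.97 RPKM with hairpin 64, against 14.7, 14.5 and 15.7 with shNT. The groups were separate on both days. The log2 fold change was -0.68 at day 4 (SE 0.12, adjusted p = 0.185, limma), with the replicate block an adjusted p of 0.00893, and -0.22 at day 12 (SE 0.05, adjusted p = 0.00458). In MV4;11 TRA2A had 8.32, 8.67 and 8.08 RPKM with hairpin 64 and 10.7, 11.2 and 11.3 with hairpin 65, against 13.6, 13.5 and 9.59 with shNT. Hairpin 64 was again below all controls, and hairpin 65 was above the lowest of them. In MOLM13 with hairpin 65 its values of 15.9, 17.9, 17.0 and 18.5 RPKM overlapped those of shNT, 17.7, 18.7 and 27.0.

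TRA2B followed with smaller differences. It had 47.7, 50.7 and 35.3 RPKM with hairpin 64 at day 4, against 60.2, 58.0 and 50.9 with shNT. At day 12 the values were 43.1, 47.2 and 46.7, against 51.0, 51.2 and 49.4. No library of the knockdown overlapped its controls, and the day 12 log2 fold change was -0.14 (adjusted p = 0.0368, limma), a call that was lost in 8 of 11 alternatives. SRSF2, an SR protein that is recurrently mutated in myeloid neoplasms, had 29.7, 29.5 and 28.8 RPKM at day 12 with hairpin 64, against 33.8, 33.2 and 32.8 with shNT. Its fall of 0.18 on the log2 scale was small beside that of TARDBP (SE 0.04, adjusted p = 0.00664, limma). SRSF1, the founding SR protein, had 83.0, 85.8 and 45.4 RPKM with hairpin 64 at day 4, against 106, 94.6 and 58.3 with shNT. The libraries numbered 3 were the lowest of both groups, so the groups overlapped, and SRSF1 passed only with the block. SRSF4 had 6.56, 6.05 and 5.87 RPKM with hairpin 65 in MV4;11, against 5.33, 4.71 and 5.08 with shNT, a log2 difference of 0.25 that did not pass (SE 0.10, adjusted p = 0.216, limma).

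Among the 17 measured hnRNP genes 2 rose and 4 fell at day 12, where 30.4% of all genes rose and 19.3% fell, and 1 rose with hairpin 64 in MV4;11, where 7.8% of all genes passed. PTBP1, a pyrimidine-tract binding repressor of exons (chr19:797075-812327, plus strand), was the gene that rose in both. It had 142, 137 and 143 RPKM at day 12 with hairpin 64, against 115, 111 and 108 with shNT. MV4;11 cells had 107, 95.5 and 101 RPKM with hairpin 64 and 81.2, 77.9 and 82.8 with hairpin 65, against 58.2, 67.8 and 74.9 with shNT. Each of these knockdown groups lay above its controls. The log2 fold change was 0.34 at day 12 (SE 0.04, adjusted p = 0.000554, limma) and 0.59 with hairpin 64 in MV4;11 (SE 0.12, adjusted p = 0.0332). Without shNT library 1 of MV4;11 it was 0.50 and without hairpin 64 library 1 it was 0.55, both below 1.5-fold. At day 4 PTBP1 had 138, 156 and 112 RPKM with hairpin 64, against 122, 139 and 102 with shNT, and the groups overlapped. The hairpin 65 libraries of MOLM13 had 105, 107, 104 and 109 RPKM, inside the shNT range of 103, 120 and 113.

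The other hnRNP called higher at day 12 was HNRNPF, which binds G-runs, with 42.4, 43.0 and 42.9 RPKM with hairpin 64, against 36.6, 38.3 and 34.3 with shNT (log2 fold change 0.23, SE 0.05, adjusted p = 0.00562, limma). PTBP3, the hematopoietic paralog of PTBP1, fell, with 14.6, 14.3 and 12.9 RPKM, against 16.3, 16.3 and 16.6 with shNT (log2 fold change -0.22, SE 0.05, adjusted p = 0.00857). PTBP1 and PTBP3 therefore moved in opposite directions at day 12. HNRNPUL1 (-0.18), HNRNPH1 (-0.18) and PCBP2 (-0.15), a poly(C)-binding protein, also fell on the log2 scale. PCBP2 lay below every control in all 3 hairpin 64 comparisons. So did TRA2A, TRA2B and TARDBP, which makes 4 of 52 members, against 3.5% of 9521 genes tested in all 3. Higher than every control in all 3 were 0 of 52 members, against 4.54%.

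HNRNPD and KHDRBS1 had the smallest p with hairpin 65 in MOLM13, and their calls turned on library a of the second shNT set. HNRNPD, also known as AUF1, had 114, 128, 130 and 117 RPKM with hairpin 65, against 132, 193 and 182 with shNT, a log2 fold change of -0.45 (SE 0.15, adjusted p = 0.204, limma). Without library a it was -0.62 and was called by the study's rule. KHDRBS1, which encodes SAM68, had 48.7, 54.8, 51.8 and 49.6 RPKM, against 56.7, 72.6 and 70.2 (-0.36, SE 0.12, adjusted p = 0.205), and -0.47 without library a. HNRNPA1 had 232 to 269 RPKM with hairpin 65, above 2 of the 3 shNT libraries and below the third. Across the series HNRNPA1 lay between 67.95 and 110 RPKM in the 6 day 4 libraries and in shNT libraries b and c, and at 195 RPKM or more in every other library. Its reads can be shared with near-identical copies in the genome, so its level is uncertain. In an HNRNPA1 junction comparison library a again read apart, with 90.5% inclusion of a 121-base exon, against 52.01% in library b and 54.5% in library c. The part of this library in the results with hairpin 65 was not tested beyond the values given without it.

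Of the 8 RBM, LUC7L and CLK genes 0 passed at the adjusted threshold at day 12, where 49.7% of all genes passed. Only RBM10 passed at day 4 with the block, where 29.4% of all genes passed and 14.1% were lower. RBM10 promotes exon skipping, and had 26.3, 28.1 and 23.3 RPKM with hairpin 64 at day 4, against 31.6, 35.4 and 29.4 with shNT, with no overlap. CLK1 and CLK4, kinases that phosphorylate SR proteins, did not pass in any comparison. CLK4 had 4.88, 4.35 and 6.46 RPKM with hairpin 64 at day 4, against 4.61, 4.43 and 4.48 with shNT. RBM39, the splicing factor degraded by aryl sulfonamide drugs, had 41.7, 41.4 and 41.6 RPKM with hairpin 64 in MV4;11, against 48.4, 48.4 and 40.3, where shNT library 3 alone lay below the knockdown.

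The 7 snRNP and splice site recognition genes included 2 that rose and 3 that fell at day 12, against 30.4% and 19.3% of all genes. SF3B1, the U2 snRNP protein that holds the branch point, had 85.0, 81.7 and 86.8 RPKM with hairpin 64, against 72.7, 73.5 and 72.8 with shNT (log2 fold change 0.21, SE 0.04, adjusted p = 0.00407, limma). PRPF8, which lies at the core of the spliceosome, had a log2 fold change of 0.14 (adjusted p = 0.0437), a call that was lost in 9 of 11 alternatives. SNRNP70, the U1 snRNP protein, had 135, 143 and 131 RPKM, against 163, 156 and 158 (log2 fold change -0.22, SE 0.05, adjusted p = 0.00558). SF1, which reads the branch point first, and U2AF1, which reads the AG at the acceptor, both had a log2 fold change of -0.14 (adjusted p = 0.0251 for SF1 and 0.0255 for U2AF1). U2AF2, the partner of U2AF1 at the pyrimidine tract, had 115, 109 and 111 RPKM with hairpin 64 and 109, 98.0 and 94.7 with hairpin 65 in MV4;11, against 60.9, 70.03 and 108 with shNT. Its controls spread more widely than the knockdown groups differed, and it did not pass.

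Of the 9 other RNA-binding regulators 3 rose and 3 fell at day 12, against 30.4% and 19.3% of all genes. FMR1, which encodes the translational repressor FMRP, had 5.31, 5.26 and 5.10 RPKM with hairpin 64, against 3.58, 3.70 and 3.67 with shNT. The groups were far apart, and the log2 fold change of 0.42 was the largest rise among the members that day (SE 0.04, adjusted p = 0.000102, limma). At day 4 FMR1 had 4.24, 4.30 and 4.04 RPKM with hairpin 64, against 3.92, 4.10 and 3.79 with shNT, which overlapped. In MV4;11 it had 3.74, 2.99 and 3.57 RPKM with hairpin 64 and 3.41, 3.63 and 3.88 with hairpin 65, against 4.08, 3.43 and 2.29 with shNT. QKI, a STAR protein that binds ACUAAY elements, had 6.25, 6.52 and 6.49 RPKM at day 12 with hairpin 64, against 5.1996, 4.85 and 5.22 (log2 fold change 0.29, SE 0.04, adjusted p = 0.00118). TIAL1, which binds U-rich sequence beside donors, had a log2 fold change of 0.16 (adjusted p = 0.0191). KHDRBS1 (-0.15, adjusted p = 0.0181) and ELAVL1 (-0.15, adjusted p = 0.0261), the RNA-stabilising HuR, fell along with TARDBP. The calls of TIAL1, ELAVL1, U2AF1 and HNRNPH1 were each lost in 6 of 11 alternatives, and that of SF1 in 5.

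The hairpins were also compared with each other in MV4;11, where they differ in the MBNL1 level they leave. At an adjusted p under 0.05 in limma 6 of 52 members differed, against 24% of all genes. TARDBP was lower with hairpin 64 than with hairpin 65 by 0.55 on the log2 scale (adjusted p = 0.0011), TRA2A by 0.37 (adjusted p = 0.00492) and HNRNPUL1 by 0.44 (adjusted p = 0.00534). HNRNPUL1 had 51.3, 48.5 and 57.2 RPKM with hairpin 64, against 71.5, 68.7 and 73.5 with hairpin 65. HNRNPU, a chromatin-bound hnRNP, had 85.4, 86.5 and 90.4 RPKM with hairpin 64, against 97.4, 112 and 112 with hairpin 65 (log2 difference -0.29, adjusted p = 0.0267). PTBP1 was higher with hairpin 64 by 0.32 (adjusted p = 0.0122), and SRSF4 was lower, with a difference of -0.23 (adjusted p = 0.0496). The SRSF4 call was lost in 8 of 8 alternatives and the HNRNPU call in 5 of 8. The count was 3 without hairpin 64 library 1 or hairpin 65 library 2 (13.5% of all genes in each) and 15 without hairpin 65 library 1 (37.3%). A difference in dose and a difference between the hairpin sequences cannot be told apart here. For the change between day 4 and day 12 of the hairpin 64 effect 0 of 52 members passed, against 0.0378% of all genes. With the replicate block, since the day 4 libraries are paired, 1 of 52 passed, against 2.2%: TRA2A, whose fall was smaller at day 12 by 0.46 on the log2 scale (adjusted p = 0.0458, limma). The block also covered the day 12 libraries, which were not paired. Day 12 was a separate experiment with its own shNT libraries, sequenced on another instrument, the NovaSeq. A difference in time cannot be told apart from a difference between these experiments. For the difference between the lines 0 of 52 passed, against 0.00933%.

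Genes of the same machinery outside the list were counted in the same way. Of 39 other core spliceosome genes tested 6 rose and 3 fell at day 12 at the adjusted threshold, and of 15 other hnRNP-like genes 3 rose and 3 fell. Among 14 nonsense-mediated decay genes 3 rose and 2 fell at day 12. Of 16 other SR-related and kinase genes tested 5 rose and 1 fell. Over all genes 30.4% rose and 19.3% fell that day.

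In the splicing data each event has a PSI, the share of junction reads that support 1 of 2 alternatives, given here in percent. The 541 member events fell into 113 junction clusters, and comprised 247 retained introns, 157 cassette exons, 41 alternative donors, 37 alternative acceptors and 59 events of other or no stated type. The study's rule for splicing asked of an event a limma p of at most 0.01 and a change of more than 10 percentage points. At day 4 it called 1 of 51 member genes, against 7.72% of all genes with events. At day 12 it called 2 of 51 against 10.1%, with hairpin 65 in MOLM13 4 of 51 against 6.26%, and in MV4;11 2 of 51 with hairpin 64 against 7.87% and 1 of 51 with hairpin 65 against 4.74%. An unadjusted p under 0.05 in limma was reached by 33 of 519 member events at day 4 against 7.69% of all events, and with the replicate block by 74 of 519 against 8.73%. At day 12 it was reached by 84 of 519 against 10.6%, with hairpin 65 in MOLM13 by 49 of 518 against 7.76%, and in MV4;11 by 40 of 515 with hairpin 64 against 7.73% and by 30 of 517 with hairpin 65 against 5.57%. Events of 1 cluster share junction reads, so these counts are not of independent events. By cluster, the rule called 1 of 108 at day 4 (3.69% of all clusters) and 0 without shNT library 1 or hairpin 64 library 2, and 2 of 109 at day 12 (4.78%) and 1 without hairpin 64 library 1 or 2 or shNT library 3. No member cluster was called in more than 1 comparison. With the replicate block at day 4, 3 of 108 member clusters were called, in HNRNPC, CLK4 and TIAL1, against 3.36% of all clusters, and the RBM10 cluster called without it was lost. Without library a the count with hairpin 65 in MOLM13 was 15 of 108 clusters, against 5.36%, where 4 were called with it, against 2.99%. It was 1 without library b and 2 without hairpin 65 library 1, 3 or 4. Without shNT library 3 of MV4;11 5 clusters were called there with hairpin 64 against 5.3% and 3 with hairpin 65 against 3.13%, where all libraries gave 2 against 3.69% and 1 against 2.21%. Without hairpin 64 library 1 or 3 the hairpin 64 count was 1. Cluster counts with no share beside them show only how member calls moved, and not how members compare with other genes.

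The member event with the lowest p at day 12 was a choice between 2 acceptors in the 3′ part of QKI, a gene whose protein isoforms differ at their C-terminal ends. The acceptors are shown because the finding is the use of the first of them. Each window holds 20 intron bases and 10 exon bases on the plus strand of GRCh37, with the last intron bases, AG, in capitals; the nearer lies at chr6:163986958-163986987 and the distal at chr6:163987733-163987762.
QKI nearer acceptor: tcccttccttttatctttAGgtatggcttt
QKI distal acceptor: ggtaattgcaatttaactAGgtgcggtggc
Use of the nearer acceptor was 16.3%, 16.1% and 16.8% with hairpin 64 at day 12, against 26.1%, 27.7% and 29.9% with shNT. The groups were well separated, and the difference was -11.5 percentage points (SE 1.05, adjusted p = 0.031, limma). It was the only member cluster that passed an adjusted p under 0.05 in the 5 comparisons. Of all clusters 1.51% passed at day 12, 0.563% at day 4, 0.0814% with hairpin 65 in MOLM13, and in MV4;11 0.64% with hairpin 64 and 0.0599% with hairpin 65. At day 4 the values were 13.9%, 23.2% and 28.6% with hairpin 64, against 22.4%, 27.98% and 42.7% with shNT, and the groups overlapped. In MV4;11 they were 22.7%, 18.7% and 22.9% with hairpin 64 and 26.3%, 31.1% and 22.5% with hairpin 65, against 30.2%, 36.5% and 19.7% with shNT. Every group of hairpin 64 libraries had a lower mean than its controls, while only the day 12 difference was called.

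SF1 gave a like choice of acceptors, on the minus strand of GRCh37. The nearer lies at chr11:64533618-64533647 and the distal at chr11:64532981-64533010, and they are shown because use of the distal acceptor was the measured share.
SF1 nearer acceptor: gggcttctttaccaccccAGatacgacgac
SF1 distal acceptor: tccccaaaccgggccgccAGgatccctccc
Use of the distal acceptor was 31.6%, 36.6% and 30.0% with hairpin 64 in MV4;11 and 42.3%, 43.9% and 36.8% with hairpin 65, against 44.8%, 48.2% and 40.9% with shNT. Hairpin 64 lay below every control, and the difference was -11.9 percentage points (SE 2.74, adjusted p = 0.36, limma). At day 4 the values were 30.4%, 27.3% and 32.6% with hairpin 64, against 40.1%, 44.7% and 33.7% with shNT. Day 12 gave 31.0%, 27.9% and 29.5%, against 35.2%, 40.2% and 40.5%. Neither day overlapped, and the differences of -9.4 and -9.1 points missed the minimum of 10. With hairpin 65 in MOLM13 the groups overlapped. Leaving out 1 library moved the MV4;11 difference between -13.8 and -10.1 points, and the call was lost without any one library except hairpin 64 library 2.

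RBM10 and SRSF1 had alternative donors that were called once each. Their donors are shown with 10 exon bases and 20 intron bases and the first intron bases, GT, in capitals. In RBM10 the donors lie 3 bases apart, at chrX:47039427-47039456 and chrX:47039430-47039459 (plus strand). In SRSF1 they lie at chr17:56083142-56083171 and chr17:56082755-56082784 (minus strand).
RBM10 upstream donor: ctccaccatcGTggtgagggcggcacagtt
RBM10 downstream donor: caccatcgtgGTgagggcggcacagttggg
SRSF1 upstream donor: atctcatgagGTaggttatacacgtattct
SRSF1 downstream donor: tctcgctctcGTacataagatgattggtga
Use of the upstream RBM10 donor was 51.7%, 47.6% and 39.0% with hairpin 64 at day 4, against 61.7%, 68.7% and 62.4% with shNT. The groups were separate, with a difference of -18.1 points (SE 4.15, adjusted p = 0.35, limma). With the replicate block the adjusted p was 0.454 and the call was lost, as it was without any one library except hairpin 64 library 1. At day 12 the values were 46.3%, 47.3% and 52.3%, against 51.9%, 54.6% and 55.0%, which overlapped. Use of the downstream SRSF1 donor was 86.1%, 75.0% and 80.8% with hairpin 64 in MV4;11 and 77.8%, 65.4% and 54.2% with hairpin 65, against 55.0%, 57.1% and 54.2% with shNT. The hairpin 64 difference of 25.2 points (SE 3.17, adjusted p = 0.11, limma) was the largest of the called member events. Of the MOLM13 libraries 3 gave no value for this event, and the rest ranged from 12.5% to 75.0%.

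**Figure D4:**
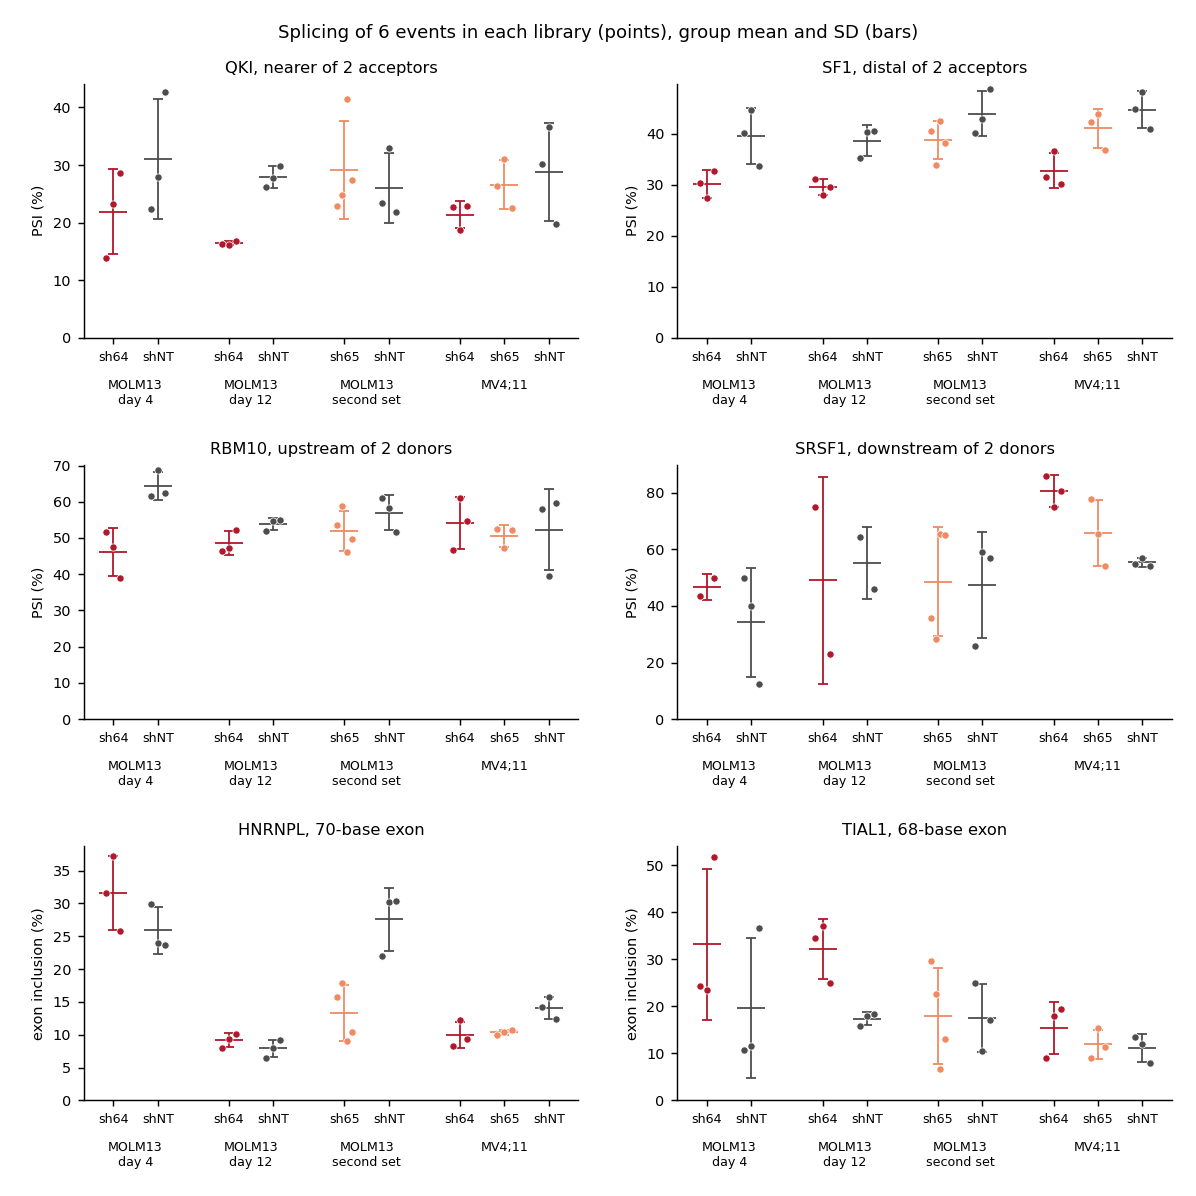
PSI in percent of 6 member events in each library (points), by group, each knockdown group left of its shNT group. QKI at day 12 and SF1 with hairpin 64 lie below their controls, and SRSF1 with hairpin 64 in MV4;11 lies above its controls at 75.0% to 86.1%.

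The windows were searched on the transcribed strand for 4 motifs of the MBNL1 type, TGCT and TGCC with a leading T, and CGCT and CGCC with a leading C, which can overlap one another. The distal SF1 acceptor and the downstream SRSF1 donor held 1 each and the other 6 windows 0. Over the alternative acceptor and alternative donor events of the series 31.4% of 8934 acceptor windows and 27.2% of 7012 donor windows of this length held at least 1. A match is a description of the letters in these windows only.

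HNRNPL and TIAL1 each have a short exon annotated in nonsense-mediated decay transcripts and in no protein-coding one, the usual form of a poison exon. The HNRNPL exon is shown because it was called in 1 comparison, with the same motifs in capitals. It lies on the minus strand at chr19:39332253-39332322 (70 bases).
HNRNPL exon: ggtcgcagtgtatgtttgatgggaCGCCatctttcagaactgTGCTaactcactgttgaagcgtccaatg
HNRNPL, which binds CA repeats, held 2 motifs, and 25.6% of 11231 exon windows of that length held at least as many. Inclusion of the HNRNPL exon was 15.7%, 17.9%, 9.03% and 10.4% with hairpin 65 in MOLM13, against 22.0%, 30.3% and 30.4% with shNT. The groups did not overlap, with a difference of -14.3 points (SE 3.27, adjusted p = 0.38, limma). The call was lost without shNT library b or c or hairpin 65 library 1, 3 or 4, where the difference lay between -15.1 and -12.9 points. In MV4;11 it was 8.30%, 12.2% and 9.32% with hairpin 64 and 9.94%, 10.4% and 10.7% with hairpin 65, against 14.3%, 15.7% and 12.3%. Both hairpins lay below the shared controls, by -4.2 and -3.8 points, under the minimum of 10. At day 4 the exon stood at 31.6%, 37.2% and 25.9% with hairpin 64, against 30.0%, 24.0% and 23.7% with shNT, in the other direction and with overlap.

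The TIAL1 exon had a higher mean inclusion with hairpin 64 than with shNT in MOLM13. At day 12 its inclusion was 34.5%, 37.1% and 25% with hairpin 64, against 15.8%, 17.9% and 18.5% with shNT. The difference was 14.8 points (SE 3.57, adjusted p = 0.246, limma), with an unadjusted p just outside the rule. A second event of the same exon gave a mean of 16.6% with hairpin 64, against 8.11% with shNT, at day 12, a difference of 8.48 points (adjusted p = 0.0936, limma) and below the minimum of 10. At day 4 it was 24.3%, 23.6% and 51.7%, against 10.6%, 11.6% and 36.7%. Each knockdown library was higher than the shNT library of the same number, and the difference of 13.6 points was called with the replicate block (adjusted p = 0.223, limma) and not without it (adjusted p = 0.906). In MV4;11 the values were 9.06%, 17.9% and 19.3% with hairpin 64 and 9.05%, 15.3% and 11.3% with hairpin 65, against 13.5%, 11.9% and 7.88%, and overlapped. TIAL1 RNA was higher at day 12 (log2 fold change 0.16) in the same libraries in which inclusion of this exon was higher.

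Block calls at day 4 also came from HNRNPC and CLK4. A 26-base exon of HNRNPC, an hnRNP that binds U-tracts, was at 59.8%, 56.9% and 37.1% with hairpin 64, against 69.8%, 68.2% and 49.5% with shNT. The difference was -11.3 points (adjusted p = 0.22 with the block and 0.906 without it, limma). The CLK4 event was at 58.1%, 67.8% and 52.4% with hairpin 64, against 44.2%, 46.4% and 33.9% (17.9 points, adjusted p = 0.302 with the block and 0.548 without it, limma). In both genes the libraries numbered 3 were the lowest of their groups. The coding exon 4 of RBM10 (chrX:47030427-47030657, 231 bases) had 84.4%, 84.8% and 89.8% inclusion at day 12 with hairpin 64, against 78.4%, 76.3% and 72.8% with shNT. Its difference of 10.5 points (SE 2.27, adjusted p = 0.20, limma) was called, and the call was lost without any one of the 6 libraries.

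To compare exons by annotation, 78 distinct cassette exons were sorted by the types of annotated transcript that share an exon edge with them. Whether an exon is translated or adds a stop was not checked. Of these 53, here called coding exons, lay in protein-coding transcripts of 28 genes, with a median inclusion of 79.9%. Here called decay exons, 20 lay in nonsense-mediated decay transcripts of 14 genes and in no protein-coding one. The decay exons had a median of 10.8% and a highest level of 98.6%, which is not that of a rarely used exon. Of the 19 decay exons tested, inclusion was higher with the knockdown for 14 at day 4, 12 at day 12, 13 with hairpin 65 in MOLM13, and in MV4;11 for 12 with hairpin 64 and 11 with hairpin 65. The median differences were 2.40, 0.784, 1.03, 0.594 and 0.0755 points in that order, and 0 of these exons were called in any of the 5 in the events used for this sorting. Of the coding exons 25, 28, 25, 28 and 26 of 53, in the same order, were higher (52 were tested with hairpin 64 in MV4;11). Of all cassette exon events tested 41.8%, 43.9%, 48.5%, 43.9% and 45.4% were higher. These shares count events and not distinct exons. The decay exons also had lower inclusion than the coding exons, and exons of like inclusion were not compared. Between 3 and 5 of the 19 decay exons had an unadjusted p under 0.05 in limma in each comparison, against 5, 12, 6, 2 and 3 of the coding exons tested. Over events of any type in all genes the shares were 7.69%, 10.6%, 7.76%, 7.73% and 5.57%. The medians of the coding exons were 0, 0.0591, -0.0354, 0.106 and 0 points. Differences among the shNT groups were of like size: for 45 of 78 exons the range over shNT group means exceeded the largest knockdown difference.

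Some decay exons had differences of opposite sign in the 2 lines. The 268-base exon of SRSF6, an SR protein, stood at 48.4% with hairpin 64, against 37.3% with shNT, at day 4. With hairpin 65 in MOLM13 it was at 34.9%, against 22.3%. In MV4;11 it was at 39.3% with hairpin 64 and 43.1% with hairpin 65, against 54.4% with shNT, the other direction. None of these differences passed the test. The 156-base exon of RBM39 had a higher mean in all 5 comparisons, of which those in MV4;11 share their controls, with means of 13.9% against 10.9% at day 12, 17.4% against 9.4% with hairpin 65 in MOLM13, and 13.6% with hairpin 64 and 12.5% with hairpin 65 against 9.1% in MV4;11. It stayed below the minimum of 10 points throughout. The 276-base exon of TRA2B, whose inclusion limits the TRA2B protein, was at 22.4% with hairpin 64, against 18.8% with shNT, at day 4, and at 21.1%, against 21.8%, at day 12. It differed by less than the spread between libraries. TRA2A has a 312-base exon that is not among the decay exons, since it is annotated only in other non-coding transcripts. It was at 8.15%, 8.89% and 12.0% with hairpin 64 at day 4, against 3.94%, 5.44% and 0.976% with shNT (6.2 points, not called). TRA2A RNA was lower in the same hairpin 64 libraries, and a link between them was not tested.

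**Figure D5:**
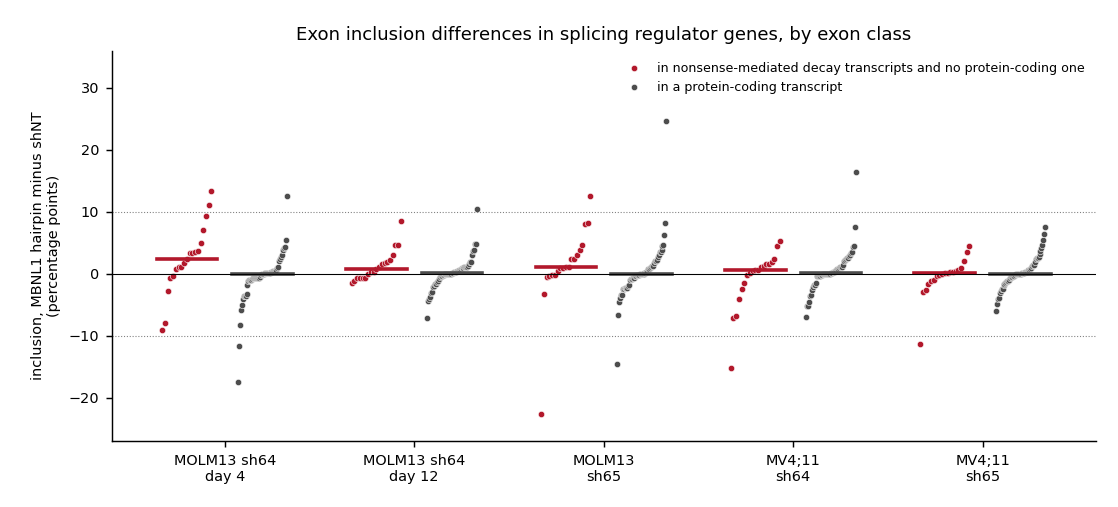
Difference in inclusion, knockdown minus shNT in percentage points, of the distinct member cassette exons in each of the 5 comparisons. Decay exons are in red and coding exons, those in a protein-coding transcript, in grey. Bars mark the medians, 2.40 points for decay exons at day 4 and 0 for coding exons, and dotted lines mark differences of 10 points.

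The mean difference in intron retention was smaller over the member events than over all intron events. The share of events that were higher was larger over the members in all 5 comparisons, with events of no difference kept in the totals. The share lower over all intron events is not given here, so directions were not compared. The median difference was larger over the members in MOLM13, and 0 for both in MV4;11. None of this was tested. The 247 intron events covered 124 distinct introns of 43 genes, with a median of 1.18%; 105 lay under 10% and 4 over 50%. Among introns with a value in every library the most retained were single introns of SRSF10 (93.5%), LUC7L (87.4%) and SRSF1 (78.2%), followed by TRA2A (37.3%) and SRSF11 (35.98%). A TRA2B intron stood at 98.6% in the 17 libraries that gave it a value. Over the 229 member events measured in every library mean retention was 7.67% ± 1.37 with hairpin 64, against 6.41% ± 0.773 with shNT, at day 4 (SD, n = 3 each). At day 12 it was 8.62% ± 0.487, against 7.94% ± 0.474. With hairpin 65 in MOLM13 it was 6.22% ± 0.874, against 5.09% ± 0.153. In MV4;11 it was 5.15% ± 0.341 with hairpin 64 and 5.28% ± 0.746 with hairpin 65, against 5.22% ± 0.656 with shNT. The mean difference over tested intron events was 1.14 points for members and 2.37 for all events at day 4. It was 0.691 and 1.37 at day 12, and 0.925 and 2.24 with hairpin 65 in MOLM13. The median differences of the members in these 3 comparisons were 0.0739, 0.194 and 0.334 points, against 0 over all intron events each time. Of the tested member intron events 124 of 234 were higher with the knockdown at day 4, against 42.6% of all intron events. At day 12 131 of 233 were higher against 41.9%, and with hairpin 65 in MOLM13 135 of 233 against 45.2%. In MV4;11 86 of 231 were higher with hairpin 64 against 33.0%, and 97 of 233 with hairpin 65 against 32.9%. Lower were 54, 64, 42, 63 and 66 in the same order, and events with no difference stay in the totals. An intron can carry more than 1 event, so these are not counts of independent introns. In MV4;11 the mean difference was 0.0437 and 1.11 with hairpin 64 and -0.111 and 0.909 with hairpin 65.

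Single introns were called with hairpin 65. The SRSF11 intron within chr1:70694238-70697951 was retained at 34.9%, 36.7%, 37.8% and 34.2% in MOLM13 with hairpin 65, against 27.5%, 19.6% and 20.6% with shNT (13.3 points, SE 2.21, adjusted p = 0.23, limma). The SRSF1 intron at chr17:56081362-56082284 moved the other way, with 74.5%, 78.0%, 74.0% and 74.3%, against 84.7%, 91.3% and 96.0% (-15.4 points, SE 2.86, adjusted p = 0.27, limma). Both were without overlap, and the SRSF1 call was lost without shNT library b, at a difference of -15.1 points. CLK1 is known for introns retained in its nuclear RNA. An intron of this gene at chr2:201721708-201722441 had 3.18%, 4.31%, 0% and 2.67%, against 10.3%, 10.0% and 19.6% (-10.8 points, SE 2.74, adjusted p = 0.42, limma), and its call was lost without any one library. A second SRSF1 intron, at chr17:56083334-56083704, was listed at 0% in all 3 hairpin 65 libraries of MV4;11, against 13.04%, 11.0% and 7.98% with shNT (-10.7 points, SE 1.40, adjusted p = 0.26, limma). Hairpin 64 gave 0%, 8.18% and 8.62% for this intron, which overlapped the controls. Without shNT library 1 the difference was -9.47 points, below the minimum.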

How the data were processed

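RNA-seq of 28 cell-line libraries was used, each assigned to its group from its deposited label. The authors aligned reads to hg19 (GRCh37) with STAR and deposited expression as RPKM per gene and splicing as PSI, a fraction from 0 to 1 of the junction reads that support an event, which was multiplied to percent here. The labels and the study's methods differ in the number of libraries per group. The second shNT set of MOLM13 carries no replicate numbers in the columns, and its libraries are called a, b and c. The column names of b and c each hold a different further number, whose meaning is not stated. Depth is known only relative to the median library.

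Genes with a mean of at least 1 RPKM in either group were tested as log2(RPKM + 1) with limma 3.58.1 (R 4.3.3; package data.table, version 1.17.8), so fold changes are on that scale and understate the change of low genes. For splicing, PSI was tested wherever over 50% of both groups' libraries had a value, the event with the lowest p standing for its junction cluster. Tests ran over all genes or events, and adjusted p-values are Benjamini-Hochberg values over all of them; all are two-sided. Both scripts were tested on simulated data. Summaries used pandas 2.3.3, scipy 1.17.1 and numpy 2.4.6 under Python 3.11.15, sequences pysam 0.24.0 and figures matplotlib 3.10.9. Sequences come from the GRCh37 reference, on which 98.4% of 61246 junction ends of cassette events lay on exon edges, against 0.320% after a shift of 1 base.

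Same-numbered libraries were checked for pairing after removal of group means. Only hairpin 64 at day 4 was paired, with expression correlations of 0.848, 0.799 and 0.882. The members and lists were chosen with earlier results of these data known. Genes named are the members called by either threshold in any comparison, the 2 with the smallest p where fewer were called, and the 3 with the highest and lowest shNT levels. Events named are up to 8 called clusters per comparison with the largest differences, each by its event with the lowest p. Other genes, exons and introns named, such as U2AF2, CLK4, RBM39, SRSF6 and TRA2B, were chosen after their values were seen. Alternatives were another pseudocount (0.1), no low-value filter, median centring, 1 fit over all libraries, a replicate block, a minimum difference of 0.2 in PSI, other controls and each library left out; leaving out both day 4 libraries numbered 3 was chosen after seeing the data.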

Additional observations from a re-analysis of the deposited data

Results flagged for a closer look

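In MOLM13 with hairpin 65 retention of the SRSF1 intron at 74.5%, 78.0%, 74.0% and 74.3% held 1 library far from the other 3: the gap of the highest value to its neighbour took 0.887 of the whole range (Dixon's ratio). Chance marks about 1 in 20 groups in this way.

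The effects of hairpin 64 and hairpin 65 in MV4;11, each against the same shNT libraries, differed for 6 of 52 members by the limma test of the difference itself, against 24% of all genes. The log2 difference, hairpin 64 minus hairpin 65, was -0.55 for TARDBP, -0.44 for HNRNPUL1, -0.37 for TRA2A, -0.29 for HNRNPU, -0.23 for SRSF4 and 0.32 for PTBP1. The SRSF4 difference was lost in 8 of 8 alternatives.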

How the results depend on the processing

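No result reversed its direction under any alternative. For the 44 named genes and events 329 of 465 alternatives left the result on the same side of its threshold, 130 lost a call and 6 gained one. The replicate block at day 4, where libraries are paired, gave 10 members at an adjusted p under 0.05 in place of 0, and 3 called clusters in place of 1; for the difference between days, which uses these libraries, it gave 1 member. Where libraries share only a number, the block gave 1 member at the adjusted threshold and 1 cluster with hairpin 64 in MV4;11, and 1 cluster at day 12, and the MBNL1 change with hairpin 65 in MV4;11 lost its call (adjusted p = 0.117, limma). No paired analysis was possible for hairpin 65 in MOLM13 because its control columns carry no numbers. Without both day 4 libraries numbered 3 the study's rule called 2 members and 4 clusters, 4 members passed the adjusted threshold, and the MBNL1 log2 fold change was -2.37. In 1 fit over all 28 libraries the adjusted threshold gave 3 members at day 4, 1 at day 12, 2 with hairpin 65 in MOLM13 and 4 with hairpin 64 in MV4;11; called clusters were 5 at day 4, 0 at day 12, 9 with hairpin 65 in MOLM13, and in MV4;11 4 with hairpin 64 and 0 with hairpin 65. The study's rule then called 1 member with hairpin 65 in MOLM13, as it did with all 6 shNT libraries as controls, which gave 8 clusters. Median centring left 1 called member and no low-value filter left 0 at the adjusted threshold with hairpin 64 in MV4;11. A minimum difference of 0.2 in PSI left 0 clusters at day 4, day 12 and with hairpin 65 in MV4;11, and 1 each with hairpin 65 in MOLM13 and hairpin 64 in MV4;11. Except where a share was given above, the counts here and in the next paragraph have no share over all genes or clusters beside them. They show how member calls move with the setting, and not how members compare with other genes.

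Leaving out 1 library at a time, members called by the study's rule numbered 1 to 2 at day 4, 0 at day 12, 0 to 4 with hairpin 65 in MOLM13, 0 to 4 with hairpin 64 and 0 to 1 with hairpin 65 in MV4;11, and 3 to 15 between the hairpins. At the adjusted threshold they numbered 0 at day 4, 12 to 21 at day 12, 0 to 4 with hairpin 65 in MOLM13, 0 to 26 with hairpin 64 and 0 to 10 with hairpin 65 in MV4;11. Clusters numbered 0 to 1 at day 4, 1 to 3 at day 12, 1 to 15 with hairpin 65 in MOLM13, 1 to 5 with hairpin 64 and 1 to 3 with hairpin 65 in MV4;11. The MBNL1 log2 fold change ranged from -2.56 to -2.27 at day 4, -2.38 to -2.31 at day 12, -0.66 to -0.39 with hairpin 65 in MOLM13, -2.43 to -2.21 with hairpin 64 and -0.97 to -0.75 with hairpin 65 in MV4;11. The cause of these changes was not tested. The read numbers behind each PSI were not used here, so events of weakly expressed genes carry an unknown counting error.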
